A study of Pimephales promelas with 80 samples.

Results

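6PPD-quinone (6PPD-Q) was set against its parent compound 6PPD in whole fathead minnow larvae at 4 matched low doses. All larvae labelled with either chemical at those doses were taken, 40 of the 80 larvae of the series, 20 for each chemical. Doses were matched by mass in mg/L, and molar doses were not compared. The 4 dose pairs were 0.00878 mg/L 6PPD-Q with 0.00848 mg/L 6PPD, 0.0277 with 0.0268, 0.0878 with 0.0848, and 0.277 with 0.268, so that the 6PPD-Q dose was 3.31% or 3.57% above that of 6PPD. There were 5 larvae of each chemical at each pair. The other 40 larvae were at higher doses of either chemical, at the lowest 6PPD-Q dose, or unexposed, and 10 of them were controls. Each larva (Pimephales promelas) was an unfed, individually sequenced whole body after a day in a well of a 96-well plate, and the labels give a low share of DMSO, the solvent, per well. The labels say that larvae of several crosses were pooled and sorted to wells at random, and their age is stated inconsistently, so it is not given. All 40 larvae carry the letter C in their library names, as do 8 of the 10 controls. Here that letter is read as a plate and the code after it as a well, which the names themselves do not state.

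6PPD is an antioxidant added to tire rubber. Ozone turns it into 6PPD-Q, which washes off roads into streams and is known for killing coho salmon, while some other fish species tolerate it. The parent is a p-phenylenediamine, a benzene ring with nitrogens at opposite positions that carry a phenyl ring and a branched alkyl chain. In the quinone the central ring carries a pair of carbonyl groups as well. Quinones can take up and pass on electrons and can react with thiols, and both compounds can be altered by the enzymes with which larvae clear foreign chemicals. The comparison addresses whether oxidation to the quinone changes what the larvae express at doses below those with a broad response. The gene identifiers of the deposited table begin with FMg. None of the 26150 matched the supplied RefSeq gene table (0 matches among 64593 genes), so no gene has a name or a known function here, and neither cell types nor pathways could be checked by their marker genes.

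A difference between the chemicals passed the edgeR test in 1 gene, at 1 of the 4 dose pairs. FMg025031 was 6.76 times as high with 6PPD-Q as with 6PPD at 0.277 against 0.268 mg/L (95% interval 4.85 to 9.43, 5 larvae each). Over the 4 pairs together 0 of 21304 genes passed (0%), and for 94.6% of genes the 95% interval of the difference excluded a 2-fold difference in either direction.

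The first comparison asked which genes differed between the chemicals over all 4 pairs, with the pair as a block (edgeR quasi-likelihood test, Benjamini-Hochberg adjustment over all genes, threshold 0.05). A gene past that threshold is called. No gene was called by edgeR, DESeq2 or limma-voom (0 each), while 555, or 2.61% of those tested, had an unadjusted p under 0.05. Of these, 349 had a higher and 206 a lower level with 6PPD-Q. Where no gene differs, such a cut takes a share of about 0.05 of genes. The smallest adjusted p was 0.13. The log2 difference of a gene, 6PPD-Q minus 6PPD, had a median size of 0.07 and a median standard error of 0.11, and the median of the signed differences was 0.00. The interval excluded a 1.5-fold difference for 84.2% of genes. In the 7102 genes of highest level it excluded a 2-fold difference for 99.6% and a 1.5-fold difference for 98.1%. In the 7101 genes of lowest level the same shares were 85.5% and 58.4%. An estimated difference of more than 2-fold was found in 78 genes, 72 of them in the tertile of lowest level and 2 in the tertile of highest level, and none of these passed the test.

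**Figure D1:**
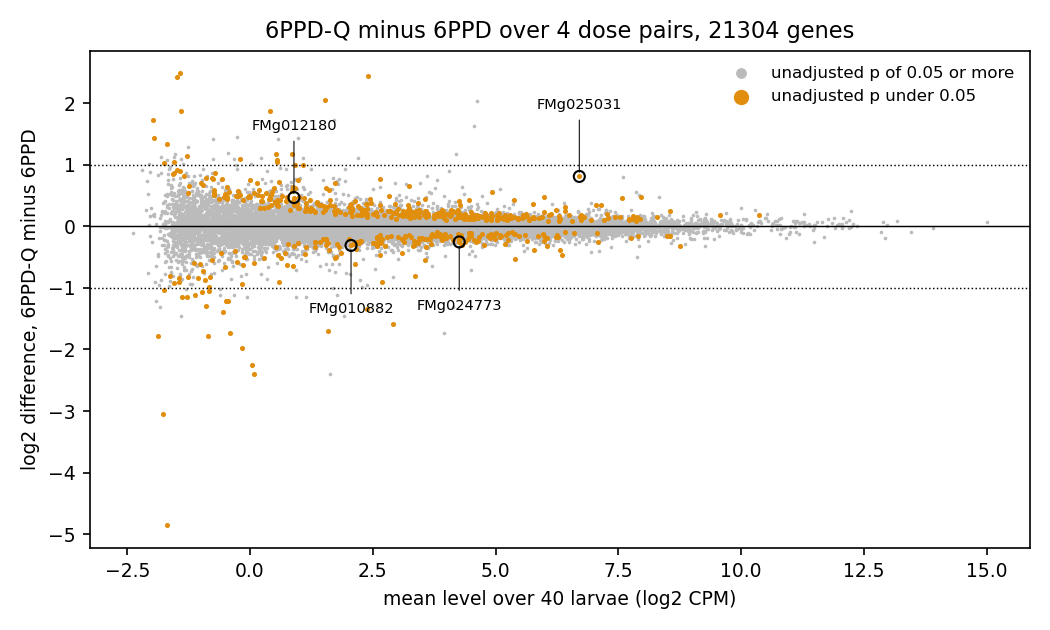
Log2 difference between larvae with 6PPD-Q and larvae with 6PPD over 4 dose pairs (20 larvae each) against the mean level of each of 21304 genes in log2 CPM (read counts scaled to a common library size). Orange points are the 555 genes at an unadjusted p under 0.05, dotted lines mark a 2-fold difference, and circles mark the 4 genes named in the text; the spread narrows with rising level, and no gene passed the adjusted threshold.

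FMg025031 was singled out by earlier results of these data, so its values describe it and are no independent evidence. Levels are given in CPM, read counts scaled to a common library size. At 0.277 mg/L 6PPD-Q the 5 larvae stood at 358, 478, 261, 573 and 397 CPM, and at 0.268 mg/L 6PPD they stood at 43.5, 58.6, 56.9, 68.5 and 77.9 CPM. The lowest 6PPD-Q larva was thus more than 3-fold above the highest 6PPD larva, and the groups did not overlap. The log2 difference was 2.76 ± 0.24 (SE), with an adjusted p of 6.39e-09 over all genes and the 4 pairs (edgeR). Each library is a whole larva, so a difference in the number of cells of a type and one in RNA per cell cannot be told apart. Means were 413 ± 118 CPM with 6PPD-Q and 61.1 ± 13.0 CPM with 6PPD (SD, n = 5 each).

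At the pair below, 0.0878 mg/L 6PPD-Q gave 43.7, 66.7, 92.6, 84.9 and 35.9 CPM of FMg025031, and 0.0848 mg/L 6PPD gave 53.7, 39.3, 69.0, 59.0 and 59.8 CPM. These groups overlapped on both sides of the 6PPD median, and the 6PPD-Q larvae held both the lowest and the highest value of the pair. At 0.0277 mg/L 6PPD-Q the values were 53.3, 63.4, 98.7, 77.2 and 68.4 CPM, and at 0.0268 mg/L 6PPD they were 67.1, 48.2, 54.7, 53.0 and 49.4 CPM. There 3 of 5 larvae with 6PPD-Q were above the highest with 6PPD. At the lowest pair the values were 47.1, 59.5, 80.8, 51.0 and 56.1 CPM with 6PPD-Q and 81.4, 52.0, 47.7, 53.6 and 44.1 CPM with 6PPD, and the groups overlapped throughout.

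The log2 difference of FMg025031 was 0.08 (95% interval -0.37 to 0.53) at the lowest pair, 0.40 (-0.05 to 0.85) at the next and 0.20 (-0.25 to 0.65) at the one after, with adjusted p of 0.999, 0.883 and 0.997 (edgeR, over genes and pairs). The upper ends of these intervals correspond to 1.44-fold, 1.81-fold and 1.57-fold, all below the lower end of the interval at the highest of the 4 pairs, 4.85-fold. The groups thus overlapped up to 0.0878 mg/L of 6PPD-Q and were fully apart at 0.277 mg/L.

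Unexposed larvae place both chemicals. FMg025031 ranged from 42.0 to 75.1 CPM over 10 controls (median 57.1). With 6PPD-Q 1, 2, 2 and 5 of 5 larvae were above the highest control, in order of rising dose, and with 6PPD 1, 0, 0 and 1 of 5. Against the controls the mean log2 difference over the 4 doses was 0.85 ± 0.14 with 6PPD-Q (SE, adjusted p = 0.00241, edgeR) and -0.01 ± 0.13 with 6PPD (adjusted p = 1). These comparisons use the same controls. FMg025031 was the only gene called for 6PPD-Q (0.00469% of genes), and edgeR called 0 genes for 6PPD (0%). At an unadjusted p under 0.05 there were 1445 genes for 6PPD-Q, or 6.78%, and 766 for 6PPD, or 3.6%. Where no gene differs, about 0.05 of genes fall under that cut.

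**Figure D2:**
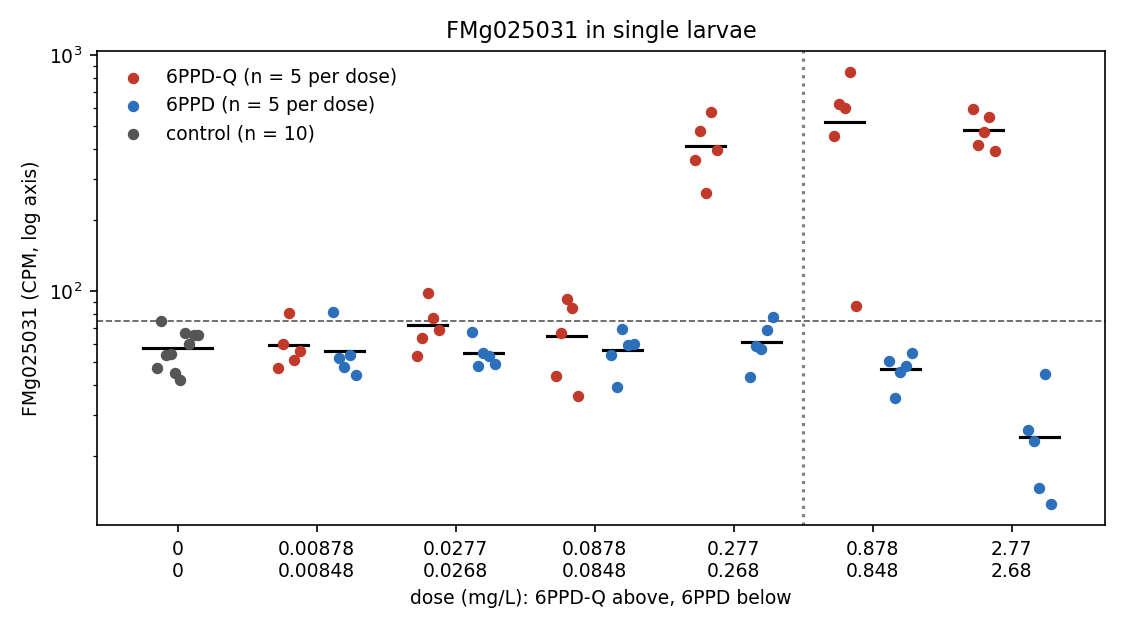
FMg025031 in CPM (log axis) in single larvae at each dose pair, 6PPD-Q left of 6PPD, with unexposed controls at dose 0. Bars are means, the dashed line is the highest control (75.1 CPM), and the dotted line separates the 4 low pairs from the higher 2; all 5 larvae at 0.277 mg/L 6PPD-Q lie above every 6PPD larva and every control.

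The second comparison asked whether the difference between the chemicals varied from pair to pair. It did for 1 of 21304 genes (0.00469%), FMg025031 (adjusted p = 7.87e-06, edgeR, interaction of chemical and pair), and 1476 (6.93%) had an unadjusted p below 0.05. DESeq2 called 7 genes and limma-voom 1. Without the highest of the 4 pairs the adjusted p of FMg025031 was 0.902 and 0 genes were called.

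Tested pair by pair, with adjustment over genes and the 4 pairs, edgeR called 0, 0, 0 and 1 genes from the lowest pair to the highest, the last being FMg025031 (0.00469% of genes at that pair). At an unadjusted p under 0.05 there were 1507 genes at the lowest pair, 343 at the second, 2813 at 0.0878 mg/L and 441 at the highest, or 7.07%, 1.61%, 13.2% and 2.07% of genes. DESeq2 called 7, 0, 30 and 1 genes, and limma-voom 0, 0, 0 and 1. With 5 larvae against 5 the 95% interval excluded a 2-fold difference for 78.4%, 80.5%, 73.5% and 79.9% of genes in the same order.

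At 0.0878 against 0.0848 mg/L 3 genes, all higher with 6PPD-Q, passed when the p was adjusted over the genes of that pair alone (adjusted p = 0.0257, 0.0257 and 0.0351, edgeR), which is 0.0141% of genes. Over the 4 pairs their adjusted p was 0.0686, 0.0686 and 0.0841. The first stood at 20.9 ± 19.4 CPM with 6PPD-Q and 0.391 ± 0.122 CPM with 6PPD (SD, n = 5 each), and at a mean of 0.811 CPM in controls. The second stood at 5.79 ± 5.28 CPM with 6PPD-Q and 0.503 ± 0.0691 CPM with 6PPD, and at a mean of 3.02 CPM in controls. The remaining gene stood at 5.03 ± 3.52 CPM with 6PPD-Q and 0.806 ± 0.371 CPM with 6PPD, and at a mean of 1.81 CPM in controls. In all 3 genes the control mean lay between the means of the chemicals, above that of 6PPD. These genes were picked out after their values were seen, and their identifiers are not printed. In the first and second the SD among the 6PPD-Q larvae was nearly as large as their mean, and at the other 3 pairs the log2 differences of the 3 genes lay between -2.43 and 0.23.

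Over the 4 pairs together the log2 difference of FMg025031 was 0.81 ± 0.21 (SE), with an unadjusted p of 0.000552 and an adjusted p of 1 (edgeR), so it did not pass the pooled test, and neither did any other gene. The named genes beyond FMg025031 are therefore those of smallest unadjusted p with at least 1 CPM in at least 30 of the 40 larvae and the same sign in at least 3 of the 4 pairs. This held for 9686 genes, and the identifiers of 3 of them are given. These 3 were chosen by p and sign in the same 40 larvae. Their counts of larvae and their signs in the low pairs are therefore no independent evidence. FMg012180 ranged from 1.35 to 2.79 CPM in the 20 larvae with 6PPD-Q (median 2.00) and from 0.723 to 2.12 CPM in the 20 with 6PPD (median 1.48). The groups overlapped, and 19 of 20 larvae with 6PPD-Q were above the 6PPD median, a count that the choice of the gene favours. The log2 difference was 0.47 ± 0.12 (SE, p = 0.000452, adjusted p = 1, edgeR), and it was 0.56, 0.40, 0.58 and 0.32 at the 4 pairs in order of rising dose. Controls ranged from 1.25 to 2.33 CPM (median 1.48). Against them the log2 difference was 0.30 ± 0.15 with 6PPD-Q (adjusted p = 0.735) and -0.16 ± 0.15 with 6PPD (adjusted p = 1).

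FMg010882 ranged from 2.61 to 5.26 CPM with 6PPD-Q (median 3.66) and from 3.06 to 5.95 CPM with 6PPD (median 4.49). Of the 20 larvae with 6PPD-Q, 17 were below the 6PPD median. The log2 difference was -0.31 ± 0.09 (SE, p = 0.000896, adjusted p = 1, edgeR), with -0.22, -0.44, -0.27 and -0.32 at the 4 pairs. At the highest of them the groups did not overlap: the larvae stood at 3.66, 3.59, 2.62, 3.70 and 3.67 CPM at 0.277 mg/L 6PPD-Q and at 4.54, 4.89, 4.44, 3.80 and 3.88 CPM at 0.268 mg/L 6PPD. The gap between the highest of the first and the lowest of the second was small beside the spread of either group, and the adjusted p at this pair was 0.882 over genes and pairs. Controls ranged from 3.58 to 5.42 CPM (median 4.19).

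FMg024773 ranged from 13.3 to 22.2 CPM with 6PPD-Q (median 17.4) and from 16.2 to 26.4 CPM with 6PPD (median 20.5), with 17 of 20 larvae with 6PPD-Q below the 6PPD median. The log2 difference was -0.26 ± 0.07 (SE, p = 0.00129, adjusted p = 1, edgeR), with -0.23, -0.43, -0.28 and -0.07 at the 4 pairs. Controls ranged from 14.7 to 23.4 CPM (median 18.2), and 0 of 20 larvae with 6PPD-Q and 5 of 20 with 6PPD were above the highest control.

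**Figure D3:**
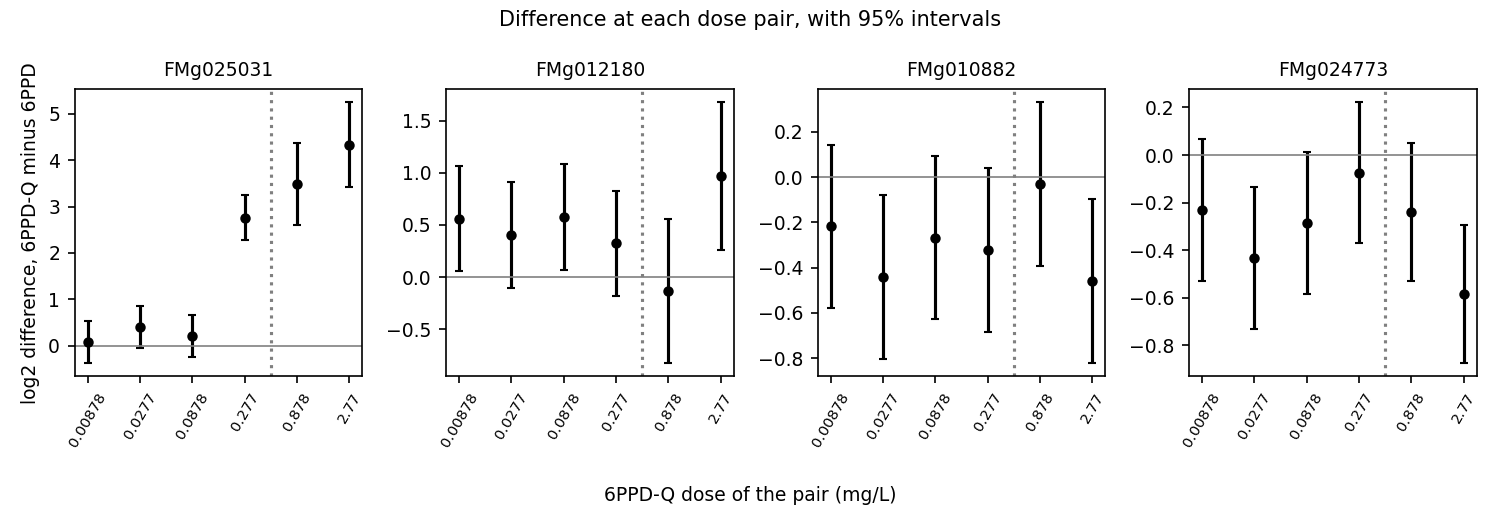
Log2 difference between larvae with 6PPD-Q and larvae with 6PPD at each dose pair, with 95% intervals (5 larvae of each chemical per pair), for the 4 named genes; the vertical axes differ. The interval of FMg025031 includes 0 at the first 3 pairs, and its difference is 2.76 at 0.277 mg/L. The intervals of the other 3 genes at the 4 low pairs include 0 in most cases.

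The 10 genes of smallest p in each direction under the same conditions had small differences. The 10 with higher levels with 6PPD-Q had log2 differences of 0.13 to 0.81 and the 10 with lower levels of 0.15 to 0.91 in size, at mean levels of 1.34 to 104.6 CPM and 4.08 to 76.2 CPM. The signs agreed in all 4 pairs in 8 and 9 of the 10, a share that the choice of genes favours. In other larvae, at 0.878 against 0.848 mg/L, the sign was the same in 5 and 7 of the 10. At 2.77 against 2.68 mg/L it was the same in 6 and 9. Over all genes it was the same in 49.5% and 53.2% at these doses. These counts were not tested.

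The gene with the smallest p of all, chosen after its values were seen, which fails the condition on level, was seen in few larvae. With 6PPD-Q 17 of 20 larvae had 0 counts and the most was 1 count. With 6PPD 12 of 20 had 0 counts, 5 were above 1 CPM and the most was 56 counts. Among controls 7 of 10 had 0 counts and 2 were above 1 CPM. At the 2 dose pairs above these, 6 of 10 larvae with 6PPD-Q and 4 of 10 with 6PPD had 0 counts. There 3 larvae with 6PPD-Q and 3 with 6PPD were at 1 CPM or more. Its unadjusted p was 6.09e-06 and its adjusted p 0.13 (edgeR), and its fitted log2 difference of -4.85 ± 0.93 depends on larvae at or near 0 and is no bound on its size.

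Larvae of the higher 2 dose pairs (0.878 with 0.848 and 2.77 with 2.68 mg/L, 20 larvae) had no part in the comparisons above. Replicate 1 at 2.68 mg/L 6PPD carries the letter A in its library name, and the others of these larvae the letter C. There 67 genes (0.314%) and 4112 genes (19.3%) differed between the chemicals (edgeR, fit of these 20 larvae). FMg025031 stood at 523 ± 281 and 484 ± 84.5 CPM with 6PPD-Q and at 46.8 ± 7.23 and 24.2 ± 12.7 CPM with 6PPD (SD, n = 5 each), with log2 differences of 3.48 ± 0.42 (SE, adjusted p = 0.000146) and 4.33 ± 0.44 (adjusted p = 1.42e-06). At 0.878 mg/L 6PPD-Q the single larvae stood at 457, 622.5, 600.4, 846.7 and 86.4 CPM, the last close to the highest control at 75.1 CPM. Controls stood at 57.4 ± 10.8 CPM of this gene (SD, n = 10). Between these pairs its mean fell with both chemicals, and with 6PPD-Q its median fell too, from 600 to 472 CPM. Changes between these pairs were not tested. The 95% intervals of the log2 differences overlapped, at 2.60 to 4.36 and 3.41 to 5.25. FMg024773 did not pass at 0.878 against 0.848 mg/L (log2 difference -0.24 ± 0.14, SE, adjusted p = 0.846, edgeR). At the highest pair it was lower with 6PPD-Q (log2 difference -0.59 ± 0.14, adjusted p = 0.00572, edgeR). There it stood at 19.8 ± 2.89 CPM with 6PPD-Q and 29.8 ± 2.98 CPM with 6PPD (SD). Controls stood at 18.6 ± 2.76 CPM (SD, n = 10). Above the highest control were 1 of 5 larvae with 6PPD-Q and 5 of 5 with 6PPD. FMg012180 had log2 differences of -0.13 and 0.97 at these pairs (adjusted p = 0.978 and 0.0518), and FMg010882 of -0.03 and -0.46 (adjusted p = 0.992 and 0.0694), so neither passed in these larvae.

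The 555 genes at an unadjusted p under 0.05 in the low pairs did not keep their direction in these larvae more often than genes in general. Their sign was the same in 45.8% at 0.878 against 0.848 mg/L and in 53.3% at 2.77 against 2.68 mg/L, and over all genes it was the same in 49.5% and 53.2%. In the reverse reading, of the 1848 genes that were higher with 6PPD-Q at the highest pair, 52.1% had a higher level with 6PPD-Q over the 4 low pairs, and of the 2264 that were lower, 48.7%, with 51.7% over all genes. Median log2 differences of these lists over the low pairs were 0.00 and -0.00. These pooled shares hide single pairs that went opposite ways. The 1848 genes had a higher level with 6PPD-Q in 56.8% at the lowest pair, where all genes had 51.2%, and in 37.8% at 0.277 mg/L, where all genes had 49.9%. The 2264 genes had a higher level in 44.2% at the lowest pair and in 56.2% at 0.277 mg/L. Of the 61 genes that were lower with 6PPD-Q at 0.878 against 0.848 mg/L, 22 had a higher level over the low pairs, or 36.1% against 51.7% over all genes, with a median log2 difference of -0.02 and 3 at an unadjusted p under 0.05. The single pairs differed here too, with 42.6%, 65.6%, 34.4% and 44.3% in order of rising dose. Of the 6 genes that were higher with 6PPD-Q at 0.878 against 0.848 mg/L, 1 had a higher level over the low pairs. These figures describe the lists and were not tested.

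The larvae themselves differed about as much within a group as between the chemicals. The root mean square difference in log2 CPM over genes averaged 0.744 between a larva with 6PPD-Q and a larva with 6PPD of the same pair (100 such couples, 0.543 to 0.989) and 0.742 between larvae of the same group (80 couples, 0.55 to 1.02). The common dispersion of the fit corresponds to a biological coefficient of variation of 29.2%. In a principal component analysis of the 40 larvae the leading 3 components held 13.5%, 8.97% and 5.24% of the variance. On none of these did the chemicals pass a test: adjusted over 3 components, the smallest adjusted p was 0.715 (permutation test within pairs, two-sided, 20 larvae each).

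The first component followed a measure of the libraries taken from reads that are counted in no gene. Whether that measure reflects the libraries or the RNA of the larvae was not tested. The share of reads that fell outside any annotated gene ranged from 7.73% to 13.5% over the 40 larvae. Its Pearson correlation with the first component, whose sign is arbitrary, was -0.97 and Spearman's rho was -0.948 (n = 40, permutation p = 1e-05 each, the smallest that could be reached, adjusted p = 2e-05 over 4 relations). It was -0.966 without the 2 larvae farthest from the median share, -0.98 within the 20 larvae with 6PPD-Q and -0.953 within the 20 with 6PPD. The share of counts in the 10 most counted genes went with it too (r = 0.903, rho = 0.844, permutation p = 1e-05 each, adjusted p = 2e-05; r = 0.882 without the farthest 2). The share of the 10 most counted genes is computed from the same gene counts as the components. The second component did not pass a test with either share (adjusted p of r = 0.742 and 0.726). As a term in the fit of the 8 groups, the share of reads outside genes was associated with 9868 genes (46.3% of those tested, edgeR), 5030 higher and 4838 lower where the share was higher.

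**Figure D4:**
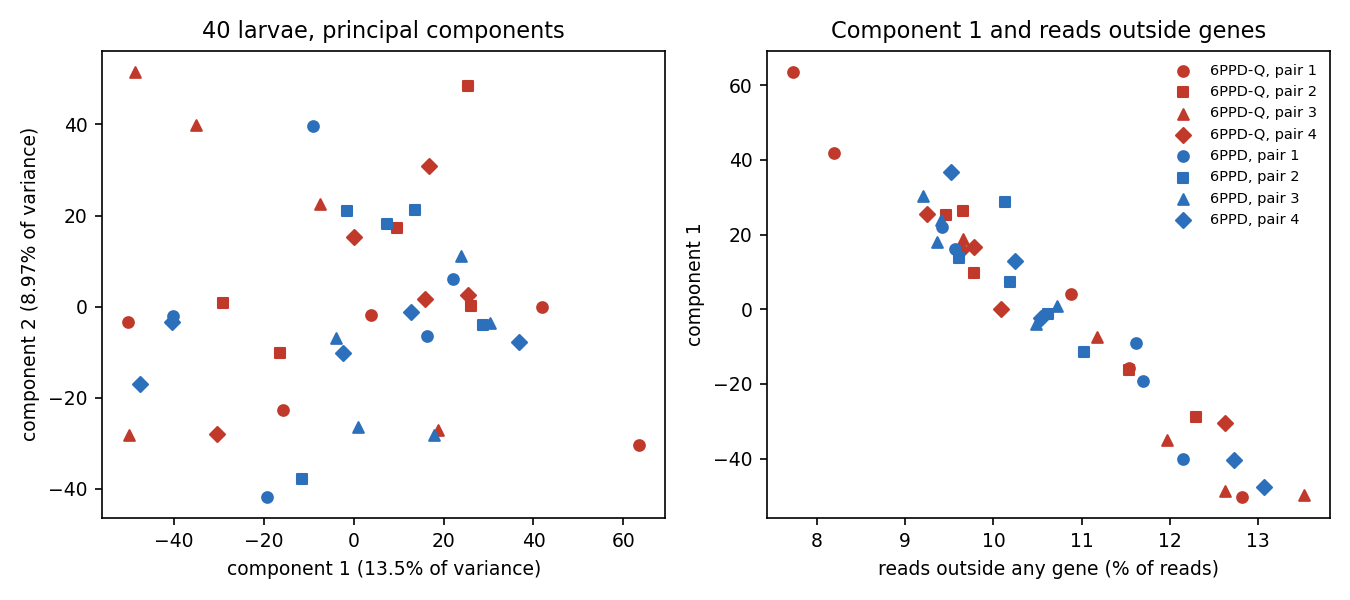
Left, first and second principal components of log2 CPM in 40 larvae; right, first component against the percentage of reads outside any gene, with marker shapes for the 4 dose pairs in order of rising dose. Red (6PPD-Q) and blue (6PPD) larvae intermingle on the left, and on the right all larvae lie along a falling line (r = -0.97).

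The share of reads outside genes did not pass a test between the chemicals over the 4 pairs, at 10.7% ± 1.62 with 6PPD-Q and 10.6% ± 1.16 with 6PPD (SD, n = 20 each, permutation test within pairs, adjusted p = 0.913 over 4 library measures). Total counts in genes (21.2 ± 2.47 M with 6PPD-Q and 21.5 ± 4.04 M with 6PPD, with M for mega), genes detected and the share of the 10 most counted genes gave the same adjusted p of 0.913. Libraries held 16.9 to 36.6 M counts in genes.

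Within pairs the share differed more. At 0.0878 mg/L the 6PPD-Q larvae stood at 11.8% ± 1.47 and the 6PPD larvae of the pair at 9.84% ± 0.708, 1.95 percentage points apart (SD, n = 5 each; p = 0.0317 by an exact permutation test, 0.127 after adjustment over 4 pairs). At the lowest pair the means were 10.2% ± 2.19 with 6PPD-Q and 10.9% ± 1.29 with 6PPD, -0.657 points apart (p = 0.54, 0.72 after adjustment, same exact test). The pair between them had a difference of 0.231 (exact p = 0.722, also after adjustment) and the highest pair one of -0.945 (exact p = 0.238, 0.476 after adjustment). The smallest p that 5 against 5 larvae can give is 0.00794.

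The pairs with the most genes at an unadjusted p under 0.05, the lowest and the one at 0.0878 mg/L, went in opposite directions. They have no larva in common. Across 21304 genes, which are not independent replicates, their log2 differences correlated at r = -0.213 (rho = -0.306), and 37.7% of genes had the same sign at both. At an unadjusted p under 0.05 at both pairs were 230 genes. They made up 15.3% of the 1507, beside 13.2% of all genes at 0.0878 mg/L. They made up 8.18% of the 2813, beside 7.07% of all genes at the lowest pair. Their number was thus near the share over all genes. Of the 230, 211 had opposite signs and 19 the same sign. With 6PPD-Q 115 had a higher level at the lowest pair and a lower one at 0.0878 mg/L, and 96 the other way. The other 5 couples of low pairs had r between -0.0293 and 0.0552 and rho between -0.161 and 0.137. Among them the pairs at 0.0878 and 0.277 mg/L 6PPD-Q also leaned in opposite directions by rank (rho = -0.161, 42% of genes with the same sign), and those at 0.0277 and 0.0878 mg/L in the same direction (rho = 0.137, 55%). With the share of reads outside genes as a covariate, chosen after these counts were seen, the number at an unadjusted p under 0.05 was 1424 in place of 2813 at 0.0878 mg/L and 1889 in place of 1507 at the lowest pair. It was 537 in place of 343 at 0.0277 mg/L, and the share of genes was 2.19% in place of 2.07% at 0.277 mg/L. Between the lowest pair and that at 0.0878 mg/L r was then -0.181 in place of -0.213, and rho -0.189 in place of -0.306. What part the makeup of the libraries has in these counts was not tested further.

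**Figure D5:**
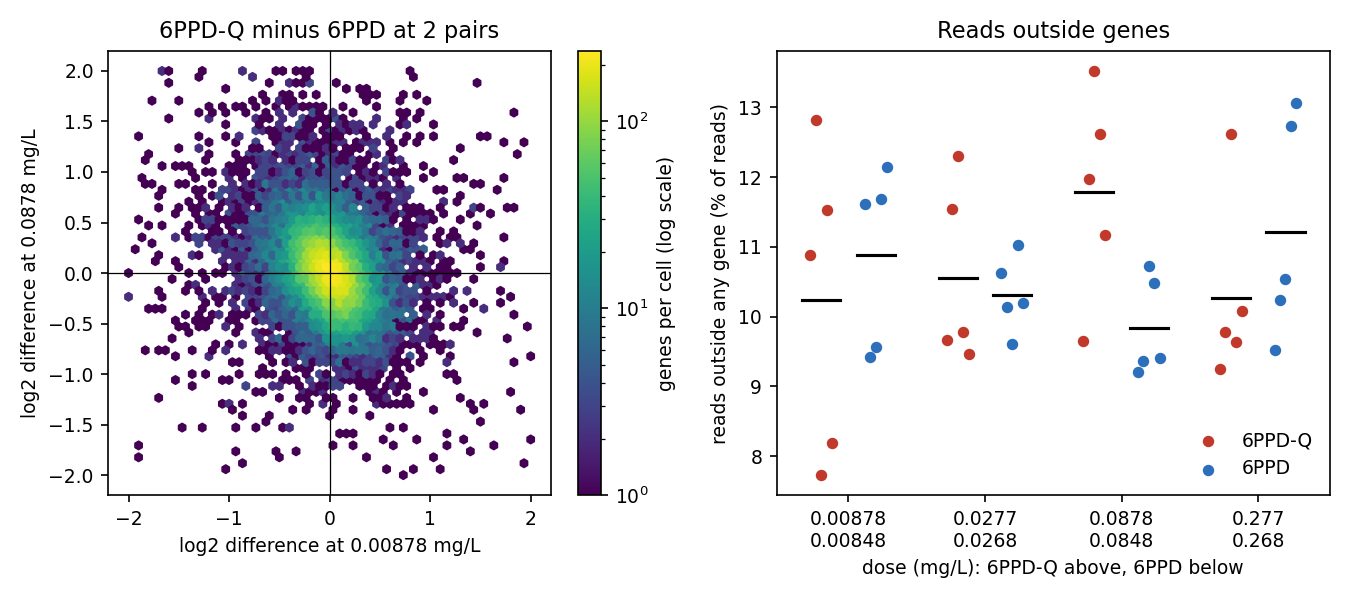
Left, log2 difference between 6PPD-Q and 6PPD of each gene at 0.0878 mg/L against that at 0.00878 mg/L 6PPD-Q, as a density of genes, drawn for differences of up to 2 in size. Right, percentage of reads outside any gene in each of the 40 larvae, 6PPD-Q left of 6PPD, with bars at the means. The cloud on the left leans downward (r = -0.213). On the right, 6PPD-Q larvae have the higher mean share at 0.0277 and 0.0878 mg/L and the lower one at 0.00878 and 0.277 mg/L.

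The wells, as read from the library names, were not evenly shared between the chemicals. By the letter of the well, row A held 0 larvae with 6PPD-Q and 4 with 6PPD, row C 0 and 2, and row H 4 and 1, while the other 5 rows held 2 to 4 of each. With the plate row as a block edgeR again called 0 genes over the 4 pairs, 1 gene whose difference varied between pairs and 1 gene at a single pair, and the log2 difference of FMg025031 at 0.277 against 0.268 mg/L was 2.94 (adjusted p = 1.13e-07).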

How the data were processed

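RNA of 40 single larvae was compared, in 8 groups of 5. Whole-number read counts of 26150 genes per library were deposited by the authors for the 80 larvae. Per the submitters' processing notes the tools were HTSeq 0.13.5, STAR 2.7.10a, Trim Galore 0.6.6, SAMtools 1.13 and bcl2fastq 2.20.0. Genome build, annotation and strand setting have no entry in the sources used here. The 5 lines that name no gene were left out of the fits and of the totals; reads outside genes were 7.73% to 13.5%, those shared by several genes 4.7% to 6.02% and multi-mapped ones 5.68% to 9.2% per library, so levels of near-identical or overlapping genes are uncertain. The authors' log2 tables, normalized per chemical, were not used.

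The test was edgeR's quasi-likelihood F test (version 4.0.16, R 4.3.3; estimateDisp, glmQLFit, glmQLFTest, TMM factors, filterByExpr by group, 21304 genes kept). The fit was dose pair plus chemical over the 40 larvae, with 8 groups for the interaction and the single pairs. Standard errors and 95% intervals derive from the F statistic. CPM values use TMM factors of all 80 libraries. The scripts were first tested on simulated counts. Alternatives were DESeq2 1.42.0, limma 3.58.1, other scaling, filters, blocks and covariates, and leaving out larvae or pairs. Principal components used log2 CPM with a prior count of 2. Permutation tests used 100000 resamples, or every split for 5 against 5.

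The labels make each library a separate fish. Counts of replicates differed by a chi-square of at least 12.5 times the degrees of freedom in each of 80 couples, so none was counted as a repeat. FMg025031 was named because earlier results singled it out; the other named genes followed the rule in the text, with 2 identifiers each way at most because no names go with them. The comparison and the rule were chosen with earlier results of these data known. The analysis of components, reads outside genes by pair and likeness of pairs was added after the counts of called genes were seen.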

Additional observations from a re-analysis of the deposited data

Results flagged for a closer look

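The difference between the chemicals in FMg025031 varied between the 4 pairs by a test of the interaction itself (adjusted p = 7.87e-06, edgeR).

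In 5 of 84 groups of values a single larva lay well apart from the other 4, and chance gives about 1 in 20. Replicate 3 at 0.277 mg/L 6PPD-Q was such a larva in 3 of them, with 2.62 CPM of FMg010882, 8.82% of counts in the 10 most counted genes and 12.6% of reads outside genes. Replicate 1 at 0.00848 mg/L 6PPD had 81.4 CPM of FMg025031. Replicate 4 at 0.268 mg/L 6PPD had the largest library, 36.6 M counts in genes.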

How the results depend on the processing

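FMg025031 stayed called at 0.277 against 0.268 mg/L, and higher with 6PPD-Q, under all 51 alternatives run, with log2 differences of 2.73 to 2.94 over settings and 2.61 to 2.88 without any single larva (adjusted p at most 0.00195). The pooled count was 1 with all 80 larvae in the fit (FMg025031, log2 difference 0.86, adjusted p = 0.001) and 1 without the dose pair as a term (another gene, since FMg025031 had an adjusted p of 0.288), and 0 under the other settings, including without any single larva. The count of genes whose difference varied between pairs was 3 with all 80 larvae, 7 with DESeq2, 0 without the highest pair (FMg025031 adjusted p = 0.902) and 1 to 2 without any single larva (adjusted p of FMg025031 1.95e-06 to 8.7e-05). Summed over the 4 pairs, the calls were 10 with all 80 larvae (2 at the lowest pair and 7 at the third), 38 with DESeq2 (7 and 30) and 4 with adjustment within each pair (3 at the third). Leaving out single larvae gave sums of 1 to 12, with 0 to 4 at the lowest pair, 0 to 0 at the second, 0 to 10 at the third and 1 to 1 at the highest. The sum was 12 without replicate 1, 2 without replicate 3 and 3 without replicate 5 at 0.0878 mg/L 6PPD-Q, 2 without replicate 1 and 7 without replicate 2 at 0.00878 mg/L 6PPD-Q, and 2 without replicate 4 at 0.0268 mg/L 6PPD. The cause of these changes was not tested.

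Same-numbered larvae of a pair had correlations of -0.184 to 0.2 in their deviations, over 0.1 in 7 of 20. Of the 20, 7 correlated best with their own number, where each had 5 larvae of the other chemical to correlate with. These values show no strong pairing by number, and a weak one was not tested. With the replicate block the counts were 0 over the 4 pairs, 1 for the interaction and 1 over the single pairs, and the log2 difference of FMg025031 at the highest pair was 2.76. The pooled differences of the 4 named genes kept their sign under every setting run, but not their size. That of FMg025031, 0.81, was 0.23 without the highest pair and 1.42 without the pair as a term, and that of FMg024773, -0.26, was -0.16 with the plate row as a block. Having 5 larvae per group limits single pairs, and low counts limit the genes of lowest level.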

Other observations

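Doses of 6PPD-Q without a partner dose of 6PPD lie outside these comparisons. FMg025031 stood at 57.8 ± 13.2 CPM at 0.00277 mg/L and at 1091 ± 267 CPM at 8.78 mg/L of 6PPD-Q (SD, n = 5 each), with 39.1 to 70.6 CPM over the larvae of the first and 789 to 1380 CPM over those of the second.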
